A study of Homo sapiens with 2 samples.

Results

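The genes described here are 36 enzymes, transporters and kinases that take glucose through glycolysis, the pentose phosphate pathway and the tricarboxylic acid (TCA) cycle. They were found by gene symbol in the deposited expression tables, where each of the 36 symbols matched 1 of 55797 genes. RNA-seq was done on 1 library of live and 1 library of processed cells, both differentiated from the established human embryonic stem cell line H1 to Stage 6, when insulin-expressing cells are present. Live cells were neither fixed nor sorted, and their RNA was taken with the RNeasy kit. Processed cells went through MARIS, a method for sorting cells by antibodies to proteins inside them. It uses 4% paraformaldehyde as fixative and opens the membranes before staining. Here the sorter kept every cell, and RNA came from a modified RecoverAll kit. The comparison asks whether MARIS changes the representation of transcripts. The study also put this question to replicates by qRT-PCR and microarrays, which are not used here. It reports that no gene differed consistently on the arrays. The cells sequenced here are an unsorted mixture from 1 line, and fixation, sorting and the choice of kit cannot be told apart.

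Glycolysis splits glucose into pyruvate in the cytosol and yields ATP and NADH. Lactate dehydrogenase turns pyruvate into lactate, whereas the pyruvate dehydrogenase complex carries it into the mitochondrial TCA cycle. The pentose phosphate pathway branches off early and supplies NADPH and ribose. In pancreatic β cells, pyruvate is mostly oxidized and lactate dehydrogenase is known to be low, whereas pluripotent stem cells are known for high glycolysis.

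All values are FPKM, in which the fragments of a gene are divided by its length and by the size of the library, so that levels can be compared between genes of different length. Each comes with a lower and an upper bound given by the authors' software, written here in brackets. The bounds describe the precision within a library and not the error between replicates, of which there were none, so no difference below has a replicate check and no test was possible. Ratios are log2((processed + 1) / (live + 1)), a scale that understates the change of low genes. Expressed genes are the 17326 genes that reached 1 FPKM in either library. Their median ratio was -0.09, and the median ratio of the 14635 genes that reached 1 FPKM in each library was 0.932, or -0.10 on the log2 scale. A gene with a ratio near -0.1 was therefore at the centre of all genes.

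The Stage 6 label was checked against marker genes. Endocrine hormones and PDX1, a pancreatic transcription factor, were present in both libraries, with INS at 98.3 and 121 FPKM in live and processed cells, GCG at 135 and 131, SST at 243 and 266, and PDX1 at 66.5 and 72.1. SOX9, a progenitor marker, was at 82.4 and 85.3 FPKM, and of the 7 progenitor markers 3 were higher and 3 lower with separate bounds. Markers of other cell types were detected too, namely VIM of mesenchyme (514 and 485 FPKM), AFP of liver (460 and 550) and LIN28A of pluripotent cells (119 and 88.7). Of the 8 mesenchymal markers, 3 were higher and 4 lower with separate bounds. The summed level of 6 liver markers was 1180 FPKM in live cells against 1379 FPKM after processing, with separate bounds for 4 higher and 1 lower. That of 6 pluripotency markers was 210.0 and 171 FPKM, with 1 higher and 4 lower. Most of this sum is LIN28A. The 1 that was higher, NANOG, was past 2-fold (1.27 and 7.34 FPKM), and TDGF1 was past 2-fold lower (5.54 and 1.46 FPKM). Of all expressed genes, 28.1% were higher and 43.7% lower with separate bounds. The 7 blood and macrophage markers summed to 4.01 and 0.703 FPKM, and 6 of them were listed at 0 in processed cells, 1 of these also in live cells. Only 1 of the 7 reached 1 FPKM in either library, AIF1, at 2.71 FPKM in live cells. CD68 had 0.830 and 0.703 FPKM. Genes at 0 began at rank 29622 in the live and 25229 in the processed library, so zeros were more common after processing. The part of these markers in the results below was not tested, and in a bulk sample fewer cells of a type cannot be told apart from less RNA per cell.

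The 36 genes were abundant in both libraries and slightly lower in processed cells. Their summed level was 8168 FPKM in live cells (1.60% of all FPKM) and 7314 FPKM in processed cells (1.46%). The ratio was below 0 for 29 genes and above 0 for 7, with a median of -0.20 and a range from -0.76 (PDK3) to 0.43 (ENO2). No gene of the 36 was more than 2-fold higher or lower. Of all expressed genes, 6.57% passed 2-fold in the higher direction and 6.19% in the lower direction, but most of these genes are less abundant, with a median of 8.46 FPKM in live cells beside 66.3 FPKM for the 36. At levels more like theirs, 40 of the 2860 genes with a mean of at least 30 FPKM were past 2-fold higher and 18 lower, so that a count of 0 among 36 does not set these genes apart. The bounds of live and processed cells were separate for 30 genes, 27 of them lower in processed cells and 3 higher (8.33% of the 36). Among all expressed genes, 43.7% had separate bounds in the lower direction and 28.1% in the higher direction, and among those with a mean of at least 30 FPKM 47.7% and 25.9%. The median of the 36 genes was -0.11 relative to that of all expressed genes, and 24 of the 36 lay below it. When processed values were divided by the median ratio of 0.932, the split of separate bounds changed to 19 genes lower and 7 higher, beside 35.4% and 35.0% of expressed genes.

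**Figure D1:**
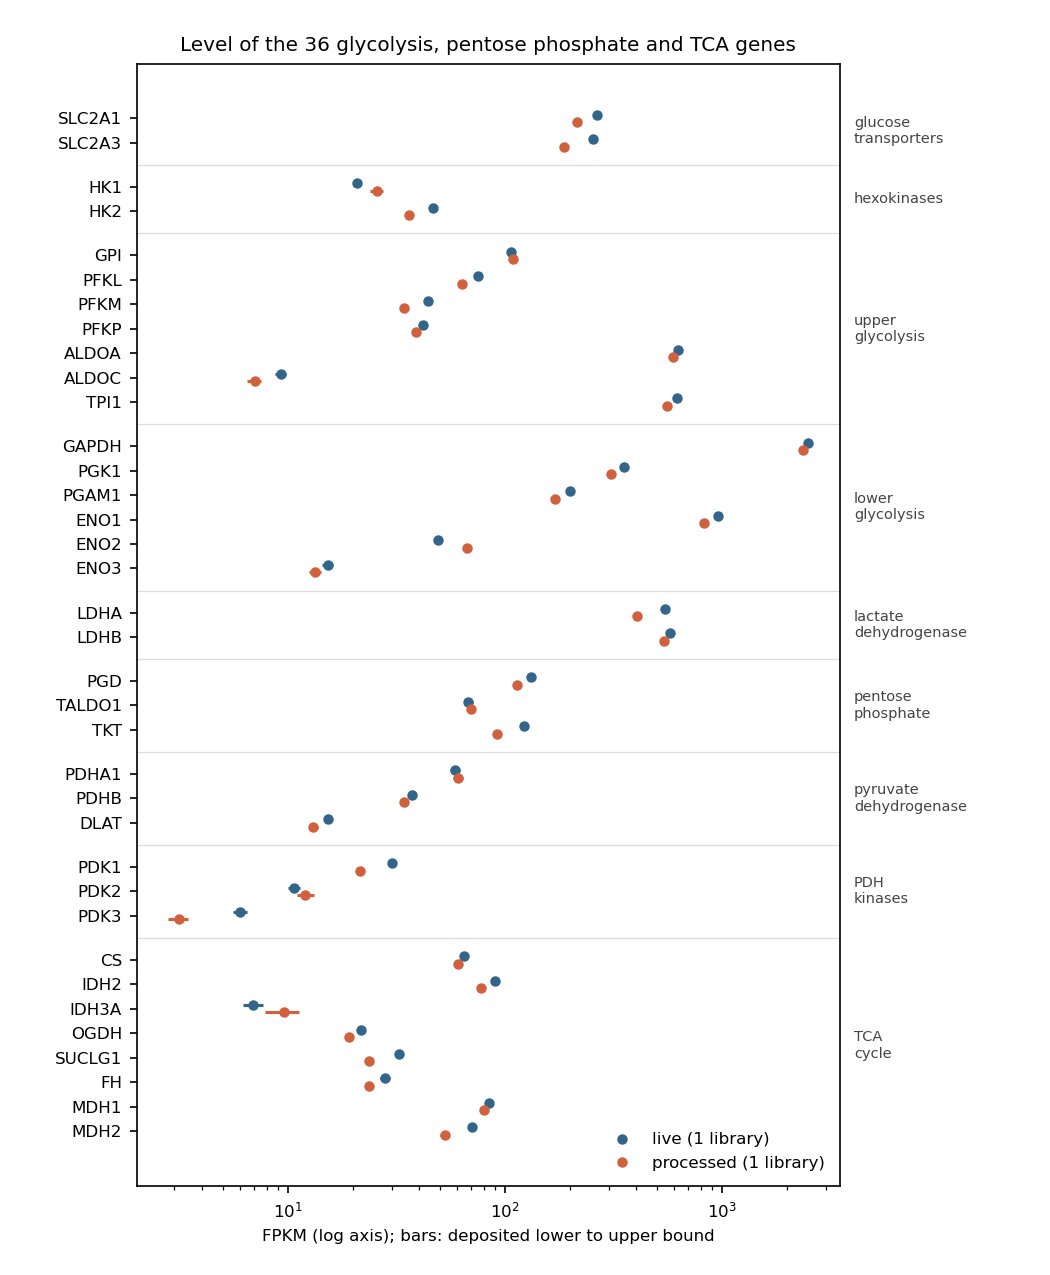
FPKM on a log axis of each of the 36 genes in live (blue) and processed (orange) cells, 1 library each, with bars from the deposited lower to the upper bound. The points of a gene lie close together, and the genes range from 3.13 FPKM (PDK3, processed) to 2479 FPKM (GAPDH, live); the live bounds of LDHA failed and are not drawn.

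The largest differences were those of 2 kinases, PDK3 and PDK1, and of SLC2A3, SUCLG1 and LDHA on the lower side and of ENO2, IDH3A and HK1 on the higher side. Several of these genes are textbook targets of HIF-1, the transcription factor induced by low oxygen. ACGTG is a common form of the core of its sites, but not the only one. Promoters were therefore read from RefSeq (assembly GRCh38.p14), where 59 were matched to 34 of the 36 genes and none to SLC2A3 and OGDH. The 250 bases before the start were searched for ACGTG on both strands. It was found in 20 of the 59 promoters (33.9%), belonging to 17 genes, beside 18.5% of all 35116 listed promoters and 21.7% of the 15181 promoters of expressed genes. The longer CACGTG, which always holds ACGTG, was found in 11.9% of the 59 promoters and 7.87% of those of expressed genes. The GC box GGGCGG was found in 57.6% and 61.6%. The 17 genes with ACGTG had a median log2 ratio of -0.20, and the 17 matched genes without it had a median of -0.21. A match is only a run of letters and not a bound site. Other forms of the core were not searched, so these medians do not separate genes with and without a HIF-1 core.

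For 4 genes that hold ACGTG a promoter is shown, for the 3 with the lowest ratio and the 1 with the highest. PDK1 and LDHA have 2 listed promoters each, and the one with the most matches was taken. The live value of LDHA failed, with bounds from 0 to 675 FPKM, so its direction is uncertain. The part of ACGTG in these ratios was not tested. Capitals mark ACGTG or its reverse complement CACGT. The stretches are chrX:24465036-24465285 (PDK3), chr2:172555840-172556089 (PDK1), chr11:18394313-18394562 (LDHA) and chr12:6914330-6914579 (ENO2) of GRCh38.p14, all on the + strand and written 5′ to 3′ up to the base before the start.
PDK3: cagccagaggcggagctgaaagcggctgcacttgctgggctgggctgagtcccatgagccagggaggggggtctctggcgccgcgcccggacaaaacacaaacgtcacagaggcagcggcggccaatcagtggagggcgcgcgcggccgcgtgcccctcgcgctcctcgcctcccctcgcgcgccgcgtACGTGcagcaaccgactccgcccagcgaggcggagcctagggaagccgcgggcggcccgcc
PDK1: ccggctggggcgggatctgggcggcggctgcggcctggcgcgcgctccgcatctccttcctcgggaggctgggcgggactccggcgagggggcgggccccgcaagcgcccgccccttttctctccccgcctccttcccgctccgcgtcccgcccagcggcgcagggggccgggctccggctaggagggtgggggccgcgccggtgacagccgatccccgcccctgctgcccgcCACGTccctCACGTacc
LDHA: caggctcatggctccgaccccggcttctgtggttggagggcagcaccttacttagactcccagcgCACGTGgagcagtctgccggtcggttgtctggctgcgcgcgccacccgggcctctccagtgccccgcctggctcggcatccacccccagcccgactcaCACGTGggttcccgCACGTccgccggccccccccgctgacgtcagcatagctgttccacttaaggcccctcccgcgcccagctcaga
ENO2: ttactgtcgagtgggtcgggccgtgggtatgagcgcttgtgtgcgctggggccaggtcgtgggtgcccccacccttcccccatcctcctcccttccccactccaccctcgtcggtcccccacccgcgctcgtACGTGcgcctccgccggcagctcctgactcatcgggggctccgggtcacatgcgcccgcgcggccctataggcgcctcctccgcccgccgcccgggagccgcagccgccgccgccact

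Uptake of glucose was represented by SLC2A1 and SLC2A3, the glucose transporters GLUT1 and GLUT3. SLC2A1 (GRCh37/hg19, chromosome 1, 43391519 to 43424530) had 265 FPKM in live cells (262 to 268) and 214 FPKM in processed cells (211 to 217), a log2 ratio of -0.31. SLC2A3 (chromosome 12, 8071826 to 8088871) had 255 FPKM (252 to 258) and 186 FPKM (185 to 188), a log2 ratio of -0.45. Both were lower in processed cells with separate bounds. SLC2A1 made up 51.0% of the sum of the pair in live cells and 53.5% in processed cells. SLC2A2, the GLUT2 transporter of mature β cells in rodents and of liver, stood at only 0.0579 and 0.362 FPKM. Reads of 80 nt could be shared between SLC2A3 and its close paralog SLC2A14 (11.2 and 10.8 FPKM), since 11.9% of the 80-base windows of the SLC2A3 transcript also occur there.

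Hexokinases phosphorylate glucose on entry, and the pair of isoenzymes differed in direction. HK1 (chromosome 10, 71029740 to 71161638) had 20.8 FPKM in live cells (20.2 to 21.3) and 25.7 FPKM in processed cells (24.0 to 27.5), a log2 ratio of 0.30. HK2 (chromosome 2, 75061108 to 75120486), the inducible isoenzyme, had 46.5 FPKM (45.9 to 47.1) and 36.1 FPKM (35.4 to 36.8), a log2 ratio of -0.36. For each gene the bounds were separate. The share of HK2 in the pair was 69.1% in live cells and 58.4% in processed cells, so HK2 was the more abundant in both libraries. A share within a library does not depend on how the library was scaled. None of the 80-base windows of HK1 occurs in a transcript of another gene in the files, and 4.11% of those of HK2 occur in its pseudogene HK2P1. HK2P1 had 5.98 and 2.96 FPKM, also lower in processed cells.

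The upper steps of glycolysis convert glucose-6-phosphate to triose phosphates. GPI, the isomerase, had 106 and 109 FPKM in live and processed cells with overlapping bounds. Phosphofructokinase, the main point of control, is encoded by PFKL (74.9 and 63.7 FPKM), PFKM (44.2 and 34.3) and PFKP (41.8 and 38.9). All 3 were lower in processed cells with separate bounds, PFKM the most, at a log2 ratio of -0.36. The log2 ratio of PFKP, -0.10, was at the centre of all genes, and that of PFKL was -0.23. PFKL held 46.6% of the summed phosphofructokinase FPKM in live cells and 46.5% in processed cells, and PFKP held 26.0% and 28.4%. Aldolase was almost entirely ALDOA, at 627 FPKM in live cells (619 to 636) and 592 FPKM in processed cells (583 to 602), with ALDOC at 9.24 and 7.01 FPKM. TPI1, which interconverts the triose phosphates, had 618 FPKM (612 to 624) and 557 FPKM (550 to 564), a log2 ratio of -0.15.

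The lower steps, which yield ATP, held the most abundant genes. GAPDH (chromosome 12, 6643093 to 6647537), often used as a reference gene, had 2479 FPKM in live cells (2469 to 2490) and 2353 FPKM in processed cells (2341 to 2365). Its rank among all genes was 11 in the live library and 16 in the processed library. Its log2 ratio of -0.08 was 0.02 above the median of expressed genes, and its sign, like that of ALDOA, LDHB, CS and MDH1, turned positive when processed values were divided by the median ratio. PGK1, the phosphoglycerate kinase, had 353 and 308 FPKM, and PGAM1, the mutase, had 199 and 170 FPKM. ENO1, the main enolase, had 962 FPKM in live cells (957 to 968) and 823 FPKM in processed cells (817 to 829). ENO3, the muscle enolase, had 15.2 and 13.3 FPKM. These 4 genes were lower in processed cells with separate bounds, at log2 ratios from -0.23 to -0.18.

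ENO2 stood apart from the other lower steps. It encodes the enolase of neurons and neuroendocrine cells, islets among them. ENO2 (chromosome 12, 7022909 to 7032861) had 49.3 FPKM in live cells (48.2 to 50.3) and 66.7 FPKM in processed cells (64.3 to 69.1), a log2 ratio of 0.43, the highest of the 36 genes. Of the expressed genes, 82.4% had a lower ratio. Its share of the enolase FPKM was 4.80% in the live and 7.39% in the processed library, with bounds from 4.67% to 4.93% and from 7.09% to 7.69%. ENO2 shares no 80-base window with another gene in the files, but its locus overlaps LRRC23, which had 7.49 FPKM in live cells against 3.30 FPKM after processing. Among the endocrine markers, 3 of 10 were higher and 4 lower with separate bounds, and their summed level was 2310 FPKM in live cells against 2293 FPKM after processing. Most of that sum is CHGA, at 1794 and 1741 FPKM, whose processed value failed with bounds from 0 to 4712 FPKM. Without CHGA the sum was 517 and 552 FPKM, the opposite direction, an alternative chosen after seeing the data. The part of endocrine cells in the ENO2 difference was not tested.

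**Figure D2:**
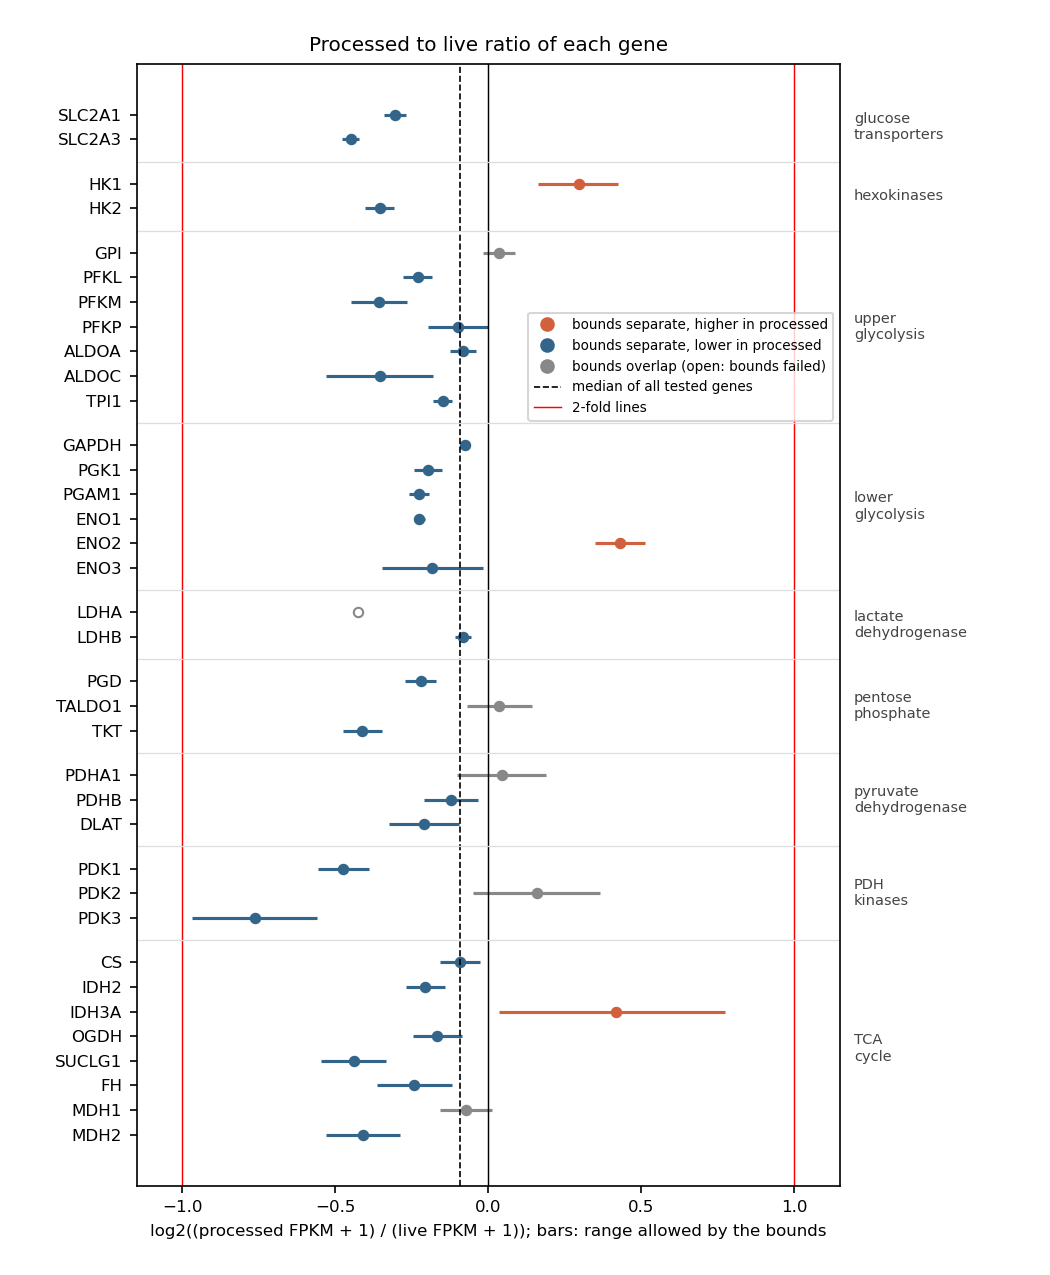
Ratio of processed to live FPKM of each of the 36 genes on a log2 scale with a pseudocount of 1, with bars from the lowest to the highest ratio that the deposited bounds allow, 1 library each. Most points lie left of 0 and between the red 2-fold lines; HK1, ENO2 and IDH3A lie to the right with separate bounds, and LDHA, whose live bounds failed, is drawn open without a bar.

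Lactate dehydrogenase is a tetramer of LDHA and LDHB subunits. LDHA (chromosome 11, 18415935 to 18429972) had 546 FPKM in live cells against 406 FPKM after processing, a log2 ratio of -0.43. The software marked the live value of LDHA as failed, with bounds from 0 to 675 FPKM, so its precision is unknown and its bounds overlap by construction. It was the only gene of the 36 whose status was not OK in both libraries, and 98 of all genes failed in the live library. LDHB had 574 FPKM (569 to 579) and 542 FPKM (537 to 547), a log2 ratio of -0.08. LDHB was 1.05 times as abundant as LDHA in live cells and 1.34 times in processed cells. Both subunits were thus abundant in these cultures.

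In the pentose phosphate pathway, PGD, which makes NADPH in the oxidative branch, had 132 FPKM in live cells (130 to 135) and 113 FPKM in processed cells (111 to 115). TKT, transketolase of the non-oxidative branch, had 123 FPKM (120 to 125) and 92.1 FPKM (89.8 to 94.5), a log2 ratio of -0.41. TALDO1, its partner transaldolase, had 67.9 and 69.6 FPKM with overlapping bounds. The genes of the non-oxidative branch thus had unequal ratios.

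The pyruvate dehydrogenase complex and its kinases control entry into the TCA cycle. PDHA1 and PDHB, the subunits of the first enzyme of the complex, had 58.9 and 60.7 FPKM (overlapping bounds) and 37.4 and 34.3 FPKM (separate bounds) in live and processed cells. The log2 ratio of PDHB, -0.12, was near the median of expressed genes. DLAT, the acetyltransferase core, had 15.3 and 13.1 FPKM. The kinases switch the complex off by phosphorylation. PDK1 (chromosome 2, 173420101 to 173489823) had 30.2 FPKM in live cells (29.3 to 31.0) and 21.5 FPKM in processed cells (20.8 to 22.1), a log2 ratio of -0.47. PDK3 (chromosome X, 24483338 to 24557954) had 6.01 FPKM (5.55 to 6.46) and 3.13 FPKM (2.81 to 3.45), a log2 ratio of -0.76. This was the lowest ratio of the 36 genes, and 10.2% of expressed genes were lower still. Without the pseudocount, PDK3 was 1.92 times as high in live as in processed cells, short of 2-fold.

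PDK2 did not follow the other kinases, with 10.7 FPKM in live cells (9.96 to 11.4) and 12.0 FPKM in processed cells (11.0 to 13.1), and its bounds overlapped. Its share of the kinase FPKM was 22.8% in live cells and 32.9% in processed cells, while that of PDK1 was 64.4% and 58.6% and that of PDK3 12.8% and 8.55%. PDK1 was the most abundant kinase in both libraries. In the annotation used here, 61.9% of the 80-base windows of PDK2 also occur in transcripts of the overlapping gene SAMD14 (6.22 and 4.18 FPKM), so the value of PDK2 is less certain than that of PDK3, which shares none.

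**Figure D3:**
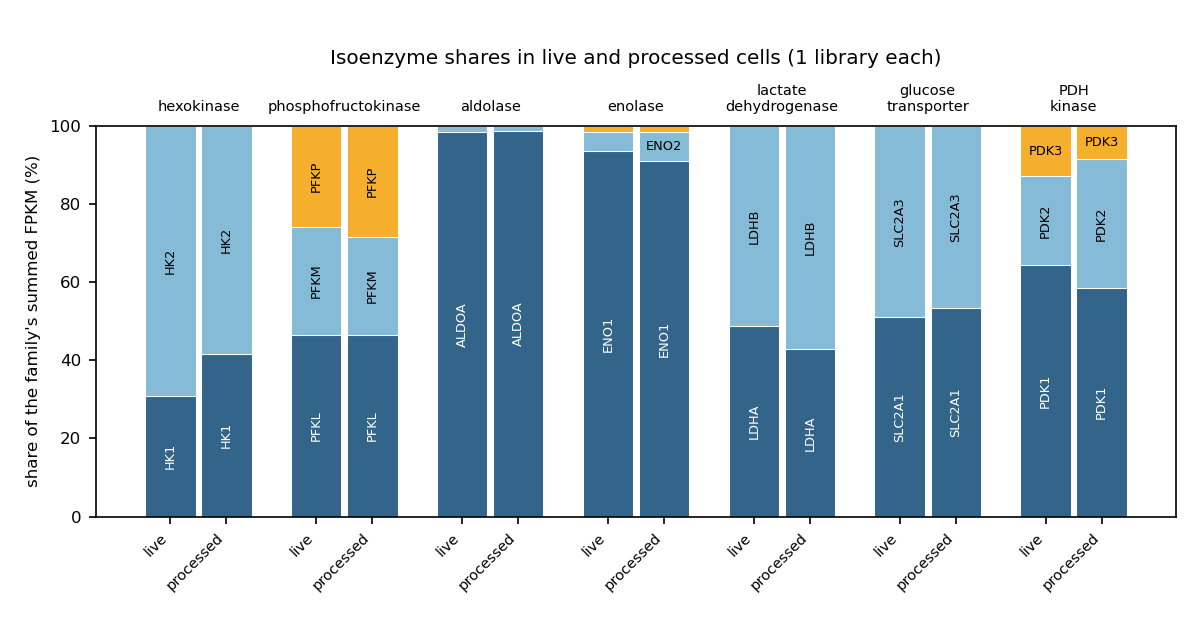
Share in % of each isoenzyme in the summed FPKM of its family, in live and processed cells, 1 library each, stacked to 100. The HK1 and PDK2 segments are larger in processed cells (41.6% and 32.9%) than in live cells (30.9% and 22.8%); unlabelled segments are ALDOC at the top of aldolase, ENO3 at the top of enolase and, in live cells, ENO2 below it.

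The TCA cycle genes were lower or little different, with 1 exception. CS, citrate synthase at the entry of the cycle, had 64.7 and 60.6 FPKM in live and processed cells. Its log2 ratio of -0.09 was at the median of expressed genes. IDH2, the NADP-dependent mitochondrial isocitrate dehydrogenase, had 89.9 and 77.9 FPKM, and OGDH, a subunit of the oxoglutarate dehydrogenase complex, had 21.7 and 19.2 FPKM. FH, fumarase, had 28.0 and 23.5 FPKM. SUCLG1, a subunit of succinyl-CoA ligase, had 32.5 FPKM (31.3 to 33.8) and 23.7 FPKM (22.8 to 24.6), a log2 ratio of -0.44. Of the malate dehydrogenases, mitochondrial MDH2 had 70.5 FPKM (68.0 to 73.0) and 52.9 FPKM (50.3 to 55.4), a log2 ratio of -0.41. Cytosolic MDH1 had 84.6 FPKM (82.5 to 86.7) and 80.4 FPKM (77.5 to 83.2). The bounds were separate for these genes in the lower direction except for MDH1, where they overlapped. MDH1 was 1.20 times as abundant as MDH2 in live cells and 1.52 times in processed cells.

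IDH3A, the catalytic subunit of NAD-dependent isocitrate dehydrogenase, was the exception. IDH3A (chromosome 15, 78423840 to 78464291) had 6.92 FPKM in live cells (6.19 to 7.65) and 9.58 FPKM in processed cells (7.86 to 11.3), a log2 ratio of 0.42. The bounds were separate by a small margin and were the widest of the genes with valid bounds, at 17.9% of the value to either side in processed cells. In the annotation used here, 63.2% of its 80-base windows also occur in transcripts of ACSBG1 (0.265 FPKM in live cells). The IDH3A locus overlaps CIB2, which had 19.0 and 12.6 FPKM.

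The pathways hold further genes that are not among the 36. Of 56 such genes found in the files, 43 were expressed. Their median log2 ratio was -0.03, or -0.09 over the 24 that reached 10 FPKM. Of the 43, separate bounds were found for 14 higher (32.6%) and 17 lower (39.5%) in processed cells. The shares over all expressed genes were 28.1% and 43.7%. PKM, pyruvate kinase, was the most abundant of them, at 513 FPKM in live cells (509 to 517) and 443 FPKM in processed cells (439 to 447), a log2 ratio of -0.21 near those of ENO1 and PGK1. The next by level had small differences, with IDH1 at 77.6 and 78.1 FPKM, PFKFB3 at 74.9 and 69.1, PGLS at 64.0 and 63.9 and SDHC at 53.7 and 50.4. PFKFB4 had 53.3 and 46.4 FPKM, IDH3B 43.1 and 46.9, and the lactate exporter SLC16A3 44.6 and 41.8. More than 2-fold differences were found for 2 of the 43, beside 12.8% of all expressed genes. LDHD, a D-lactate dehydrogenase, had 0.120 and 2.08 FPKM (log2 ratio 1.46). PDP2, a phosphatase that reactivates pyruvate dehydrogenase, had 3.09 and 0.789 FPKM (log2 ratio -1.19). Each reached 1 FPKM only in the library where it was higher, so it met the minimum from that side alone. The difference between the other pathway genes and the 36 was not tested.

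**Figure D4:**
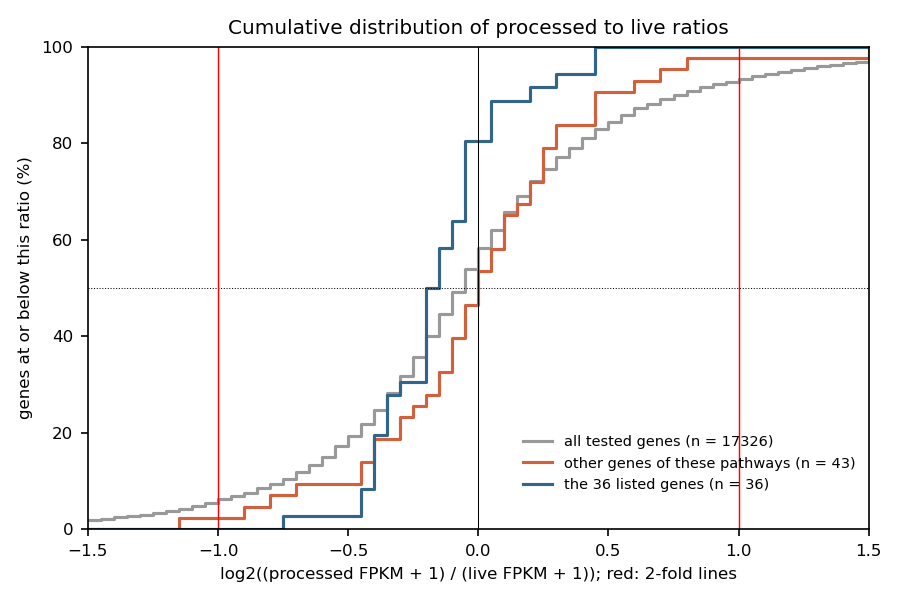
Percentage of genes at or below each log2 ratio of processed to live FPKM (pseudocount 1), for the 36 genes (blue), the 43 other expressed genes of the same pathways (orange) and all 17326 expressed genes (grey), 1 library per condition. The blue curve passes 50% near its median of -0.20 and lies within the red 2-fold lines; the grey curve extends beyond them, but it is made mostly of less abundant genes, and of the 2860 genes with a mean of at least 30 FPKM only 40 lie beyond the upper and 18 beyond the lower line.

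Partners within a complex were named after their values were seen, and some differed in direction while others did not. Of the NAD-dependent isocitrate dehydrogenase, IDH3A and IDH3B had positive log2 ratios of 0.42 and 0.12, with overlapping bounds for IDH3B. IDH3G had 29.7 FPKM in live cells (28.6 to 30.9) and 15.5 FPKM in processed cells (14.5 to 16.4), a log2 ratio of -0.90. Of the pyruvate dehydrogenase complex, PDHX had 13.0 and 23.2 FPKM (log2 ratio 0.78), whereas DLD had 34.1 and 24.4 FPKM (log2 ratio -0.47). Of succinate dehydrogenase, SDHA and SDHB had log2 ratios of 0.25 and 0.44. SDHC and SDHD had -0.09 and -0.12, near the median of expressed genes, and the bounds of SDHC overlapped. In the oxoglutarate dehydrogenase complex the signs were alike, at -0.17 for OGDH, -0.40 for DLST and -0.47 for DLD, which it shares with the pyruvate dehydrogenase complex. They were also alike for MPC1 and MPC2 of the mitochondrial pyruvate carrier (0.26 and 0.66). Of succinyl-CoA ligase, SUCLG1 and SUCLA2 were lower with separate bounds (-0.44 and -0.42). SUCLG2 (-0.03) had overlapping bounds and lay above the median of expressed genes.

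Other genes known to respond to low oxygen were examined as well. Of 10 listed, 9 were expressed, with a median log2 ratio of -0.09, the same as that of all expressed genes. Of these 9, 1 was higher and 5 lower with separate bounds, beside 28.1% and 43.7% of all expressed genes. BNIP3, a mitochondrial protein and the highest of them, had 146 and 138 FPKM. VEGFA, an angiogenic factor, had 111 and 114 FPKM with overlapping bounds, and KDM3A, a histone demethylase, had 53.3 and 35.9 FPKM. NDRG1, the 1 that was higher with separate bounds, had 57.4 and 62.0 FPKM.

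Several of the 36 genes have many processed pseudogenes, to which short reads of the parent can be assigned. There were 93 pseudogenes named after 11 of the genes, 57 of them after GAPDH, and 48 were listed at 0 in both libraries. The highest were TPI1P1 (35.7 and 28.8 FPKM in live and processed cells), GAPDHP1 (30.3 and 28.4), ENO1P1 (24.2 and 26.3, with bounds from 0), LDHAP4 (8.11 and 5.49) and HK2P1 (5.98 and 2.96). Together all 93 came to 121 FPKM in live cells against 111 FPKM after processing. TPI1P1 was at 5.77% of TPI1 in live cells and 5.17% in processed cells, and GAPDHP1 at 1.22% and 1.21% of GAPDH. Of PGAM1, 35.2% of the 80-base windows occur in RP11-887P2.3, which had 51.5 FPKM in processed cells. Of ALDOA and LDHB, 89.3% and 68.5% of the windows occur in transcripts of genes that the later annotation lists and the files do not. Of the 36 genes, 18 shared no window with another gene in the files, and 8 shared more than 10% of them with 1 such gene. The loci of 15 overlapped that of another expressed gene. Among them, ENO3 overlapped PFN1 (364 and 402 FPKM), and ALDOC overlapped RP11-192H23.4 (14.6 and 20.0 FPKM).

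The log2 ratio of the 36 genes was set against gene properties. Spearman's rho was -0.0548 with the length of the canonical transcript, 0.222 with its GC content, 0.376 with the number of annotated transcripts and 0.0206 with the mean FPKM. Across 16499 expressed genes with an annotated transcript, rho was -0.153 with length and 0.00432 with the number of transcripts. These correlations are across genes of the same pair of libraries, and genes are not independent replicates.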

How the data were processed

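RNA-seq of 1 live and 1 processed sample was analysed. Per the labels and the study's methods, RNA was poly-A purified, paired reads of 80 nt were aligned to GRCh37/hg19 with STAR 2.2.0c guided by GENCODE version 14, and the authors deposited an FPKM with lower and upper bounds for each gene, computed with Cufflinks 2.0.2. What level the bounds have is not given in the sources used here. Total fragments per sample are not given. Low values of genes with 1 annotated transcript fell on steps, of which the first was 1.07 times as large in processed as in live cells. The size of a step depends on the scaling as well as on depth, so it does not settle which library was shallower.

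Genes were joined by Ensembl identifier in pandas 2.3.3 and numpy 2.4.6 under Python 3.11.15, and scipy 1.17.1 gave rank correlations. A pseudocount of 1, a minimum of 1 FPKM in either library and a threshold of 2-fold were used, and bounds that did not overlap were counted as separate. Transcript length, GC content and shared 80-base windows came from the canonical transcripts of GENCODE release 44 on GRCh37, a later release than that of the files. Gene starts in the files count from 0, and 1 was added. The fold calculation was tested on simulated data.

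The 36 genes and the lists of other pathway genes and markers were chosen with earlier results of these data known. All 36 are named, with the 8 other pathway genes of highest mean FPKM and any past 2-fold, the 5 highest pseudogenes, 4 endocrine and progenitor markers and the highest marker of other lists. SLC2A2, VEGFA, KDM3A, NDRG1, CD68, NANOG, TDGF1, the overlapping genes and the partners in complexes were named after their values were seen. Alternatives covered the pseudocount, the minimum FPKM, the status and the scaling. No comparison between replicates was possible. A gene of the listed pathways is not reported here, and the alternative for hexokinase shares was run without it.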

Additional observations from a re-analysis of the deposited data

How the results depend on the processing

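No gene of the 36 passed 2-fold under any of the 7 alternatives (pseudocount 0.1 or none, division by the median ratio, rescaling to the same sum, a minimum of 10 FPKM, no minimum, valid status only). Division of the processed values by the median ratio moved the median log2 ratio of the 36 genes to -0.10, beside 0.00 for all expressed genes, and the number with separate bounds in the higher direction to 7. The sign changed for 5 genes under that scaling and for none under the other alternatives. The median of the 36 genes relative to all genes lay between -0.11 and -0.10 under these alternatives, except without a minimum, where most genes are near 0 and it was -0.20. With HK3 and HKDC1 added to the hexokinases, a set chosen after seeing the data, the share of HK1 was 28.8% in live and 38.4% in processed cells and that of HK2 64.5% and 53.9%. With PDK4 added, the live share of PDK1 was 61.2%. The other pathway genes past 2-fold numbered 4 with a pseudocount of 0.1 or none and 0 with a minimum of 10 FPKM; the other alternatives gave 2. The median log2 ratio of the other pathway genes moved to 0.07 under division by the median ratio, to 0.00 with the same sum and to -0.09 with a minimum of 10 FPKM, where the median of all genes was also -0.09. These alternatives for the other pathway genes were chosen after seeing the data. No paired analysis was possible because each condition has 1 sample. Replicates could not be left out for the same reason, and the bounds cover precision within a library only.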
